A study of Mus musculus with 18 samples.

Results

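Expression was compared in wild-type (WT) mouse bone marrow-derived macrophages between 2 points of a culture: the end of growth, at 0 h, and 8 h after lipopolysaccharide (LPS) was given. The comparison rests on 6 of the 18 arrays of the series, the 3 titled WT at 8 h with LPS and the 3 titled WT at 0 h. The 3 WT arrays given vehicle for 8 h divide it into a step without LPS and a step made by LPS. Marrow of male FVB/NJ mice aged 10 to 14 weeks was grown for 7 to 10 days in DMEM-F12 with serum and 20% medium conditioned by L929 cells, which secrete the growth factor M-CSF. The conditioned medium was taken off, the cells were washed and given regular DMEM-F12 with serum, and 0 h samples were collected. The other cells received 100 ng/mL LPS or phosphate-buffered saline (vehicle), still without conditioned medium. All 6 groups (WT or Klf3 knockout, KO, each at 0 h, with vehicle and with LPS) thus share the growth in L929-conditioned medium, and only the 0 h groups were collected before 8 h without it. The labels do not describe the Klf3 allele, nor do they say whether replicates of a group came from separate mice, so a p-value here speaks of the spread between samples, which may be technical.

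M-CSF binds the receptor tyrosine kinase encoded by Csf1r and keeps macrophages alive and dividing, in part through ERK signalling, D-type cyclins and the uptake of nutrients. LPS, a component of the outer membrane of Gram-negative bacteria, is sensed by TLR4, which activates NF-kB through MyD88 and induces interferon beta through TRIF. Macrophages also stop dividing after LPS and turn towards glycolysis. A comparison of LPS with 0 h holds 8 h without conditioned medium and the gain of LPS together. M-CSF was not removed on its own. Its loss cannot be told apart from that of the rest of the conditioned medium, from 8 h of further culture or from the vehicle. Withdrawal below names that whole step, vehicle against 0 h.

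The values are quantile-normalized intensities, 1 probe set per gene for 17097 genes, and differences are on the log2 scale with standard errors (SE) from the limma fit. A gene was called at a Benjamini-Hochberg adjusted p under 0.05. A nonspecific level was set in each array from control probe sets, and a fold is given as at least N-fold, computed against that level, where a group had no array above it. All 10 macrophage markers, among them Csf1r, Adgre1, Cd68, Lyz2 and Tyrobp, were above the level. Of 83 markers of other cell types, 50 were at or under it in all 9 WT arrays. Arrays of a WT group correlated at 0.977 to 0.994. In the WT arrays a first principal component with 64.6% of the variance set the LPS arrays (68.7 to 80.3) apart from the others (-44.4 to -31.3). The second held 14.7% and set 0 h (23.8 to 31.8) apart from vehicle (-33.9 to -28.7), with the LPS arrays between them (-4.03 to 14.4). In the deposited values the upper quartile was 123 to 167 at 0 h, 110 to 125 with vehicle and 66.6 to 75.7 with LPS. The 5' minus 3' difference of Gapdh, a measure of RNA integrity and labelling, was 0.12 ± 0.02 at 0 h, -0.18 ± 0.10 with vehicle and -0.44 ± 0.34 with LPS (log2, SD, n = 3 each). Their part in the results was not tested, and plate row and condition cannot be told apart, as each row of the plate held 1 condition.

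Of the 17097 genes, 6066 (35.5%) differed between LPS and 0 h, 2670 higher (15.6%) and 3396 lower (19.9%). Changes of at least 2-fold were found for 917 higher genes (5.36%) and 1561 lower ones (9.13%). The arrays of the groups did not overlap for 7207 genes (42.2%). The balance of directions depends on scaling. Quantile normalization leaves the median of all genes at -0.0045, whereas the deposited values without scaling put it at -0.64 with 586 genes higher and 9722 lower. Arrays shifted to a common median gave 1345 higher and 4890 lower (median -0.16), and arrays shifted to common hybridisation controls gave 541 and 5443 (median -0.50). Directions of the genes and lists below are relative to this shift.

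The 12 largest rises included genes of secreted, membrane and intracellular proteins. Lcn2, which encodes an iron-siderophore-binding protein, was at 5.28, 5.47 and 7.20 at 0 h and at 5391, 4858 and 4036 with LPS, a rise of 9.64 ± 0.25 (at least 271-fold, adjusted p = 2.74e-13). Its vehicle arrays, at 5.92, 4.58 and 4.31, were under the nonspecific level like those at 0 h, and no array approached the LPS group. Il1b, the interleukin-1 beta gene, was at 8.85, 17.5 and 4.91 at 0 h, at 40.7, 30.3 and 52.0 with vehicle and at 5220, 4167 and 5806 with LPS. Its rise over 0 h was 9.10 ± 0.37 (at least 288-fold), and the fitted step at withdrawal was 2.13 ± 0.37. All 0 h arrays were under the nonspecific level, so the size of that step was not measured. Saa3, an acute-phase apolipoprotein, rose by 7.81 ± 0.32 from 50.8, 36.2 and 39.8, and with LPS it was at 9420 in every array, the top of the common distribution. The sizes of its rises are therefore limited by the scale. Hp, the haptoglobin gene, rose by 7.66 ± 0.23 (202-fold), from 19.7, 19.5 and 15 to 2635, 4365 and 4145. The other genes with the 12 largest rises were Acod1 (described below), the chemokine genes Ccl5 (7.56 ± 0.29) and Cxcl11 (7.50 ± 0.38, at least 97.5-fold), the membrane protease gene Mmp14 (7.47 ± 0.16, at least 91.6-fold), Il6 (7.29 ± 0.38, at least 40.6-fold), the complement gene Cfb (7.07 ± 0.20, at least 80-fold), Il1a (7.02 ± 0.36, at least 52.4-fold) and the scavenger receptor gene Marco (6.97 ± 0.29, at least 42-fold). The order of genes with such a bound follows fitted values from a level that was not measured.

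The 12 largest falls included cell cycle genes and genes for enzymes and signalling proteins. St6gal1, a sialyltransferase gene, was at 660, 1006 and 838 at 0 h, at 588, 506 and 517 with vehicle and at 4.76, 4.48 and 11.2 with LPS, a fall of at least 46.5-fold (-7.05 ± 0.36, adjusted p = 3.28e-10). The vehicle and 0 h values lay close together, and the fall came with LPS. Ccnd1, the cyclin D1 gene, was at 3251, 1814 and 3156 at 0 h, at 70.0, 84.2 and 88.2 with vehicle and at 137, 118 and 66.0 with LPS. Here the fall came with withdrawal (-5.04 ± 0.65, 33.0-fold), and LPS against vehicle was not called (0.34 ± 0.65, adjusted p = 0.75), so that LPS against 0 h stood at -4.70 ± 0.65. Rrm2, a subunit of ribonucleotide reductase, took both steps: 781, 542 and 581 at 0 h, 124, 141 and 83.1 with vehicle and 18.01, 36.3 and 8.88 with LPS. It fell by 2.47 with withdrawal, by 2.65 more with LPS and by 5.12 ± 0.58 in all (34.9-fold). The other genes with the 12 largest falls were Tmem154 (-5.75 ± 0.35, at least 14-fold), the mitotic genes Plk1 (-5.00 ± 0.51, at least 12.6-fold), Anln (-4.83 ± 0.43) and Pimreg (-4.78 ± 0.52), Deptor, whose product inhibits mTOR (-4.78 ± 0.24, at least 7.35-fold), Bcar3 (-4.78 ± 0.50), Nav2 (-4.63 ± 0.35, at least 10.8-fold), Rnf150 (-4.54 ± 0.37) and Ccne2, cyclin E2 (-4.52 ± 0.33, at least 6.03-fold).

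**Figure D1:**
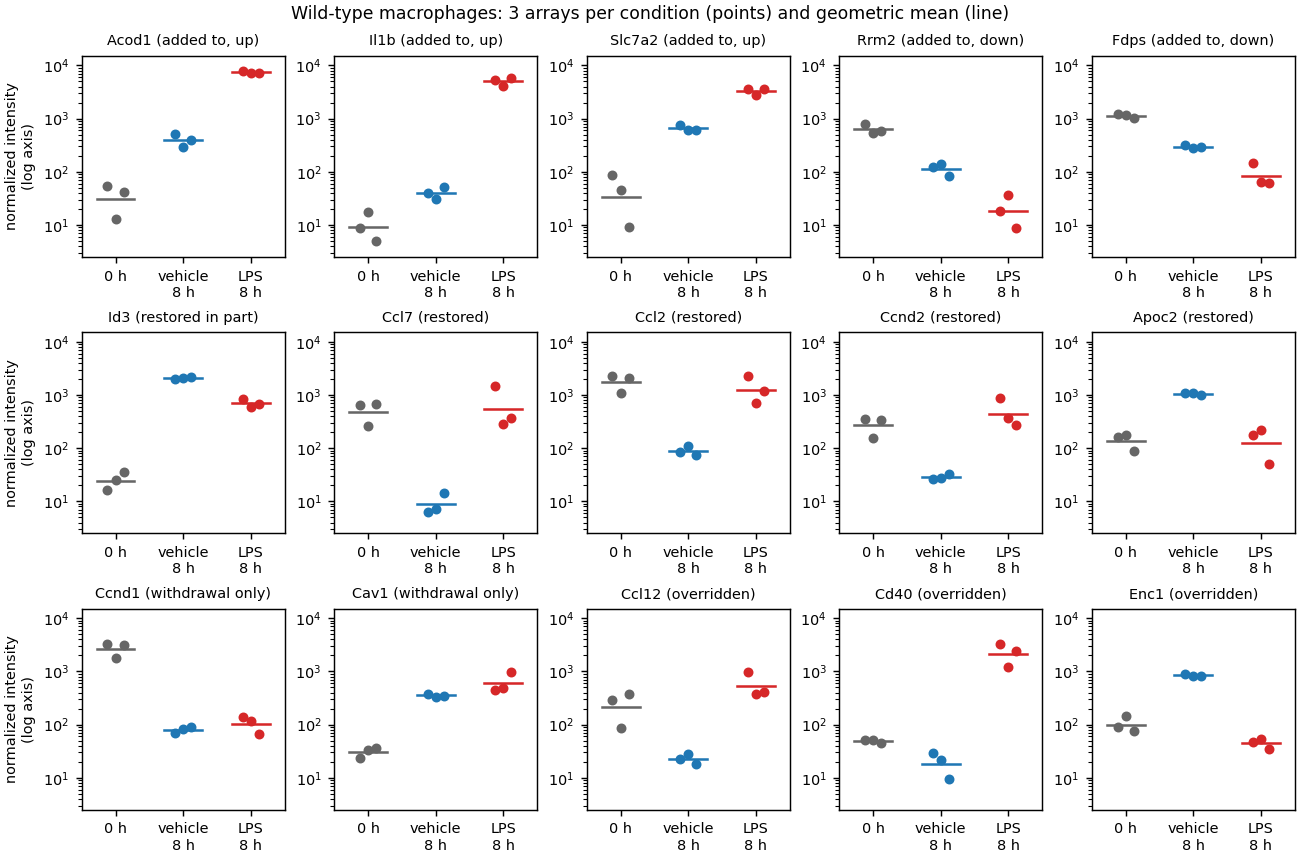
Quantile-normalized intensity (log axis) of 15 genes in the 3 WT arrays at 0 h, 8 h after vehicle and 8 h after LPS. Points are arrays and lines geometric means. Acod1, Il1b and Slc7a2 rise in both steps, Ccl7, Ccl2 and Ccnd2 fall with vehicle and lie near their 0 h values with LPS, and Ccnd1 stays low.

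Vehicle against 0 h, the change after conditioned medium was withdrawn, was called for 2424 genes (14.2%), 1226 higher (7.17%) and 1198 lower (7.01%). LPS against vehicle was called for 5522 genes (32.3%), 2347 higher (13.7%) and 3175 lower (18.6%). Genes were placed in classes by these calls and that of LPS against 0 h. Among the 2424 genes that changed with withdrawal, LPS moved 473 (19.5%) further the same way, moved 904 (37.3%) the opposite way and was not called for 1047 (43.2%). The opposite group was made up of 556 restored genes, for which LPS against 0 h was not called, 56 restored in part and 292 overridden, for which LPS ended on the other side of 0 h. A further 4145 genes were called in the LPS step only, 1825 higher (10.7%) and 2320 lower (13.6%). The vehicle arrays enter the 2 steps with opposite signs, which by itself favours opposite changes, so these counts are a description. They also move with scaling: the opposite and same shares were 37.3% and 19.5% here, 20.0% and 46.0% without scaling, 28.8% and 26.9% with a common median, and 28.2% and 33.1% with common hybridisation controls.

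**Figure D2:**
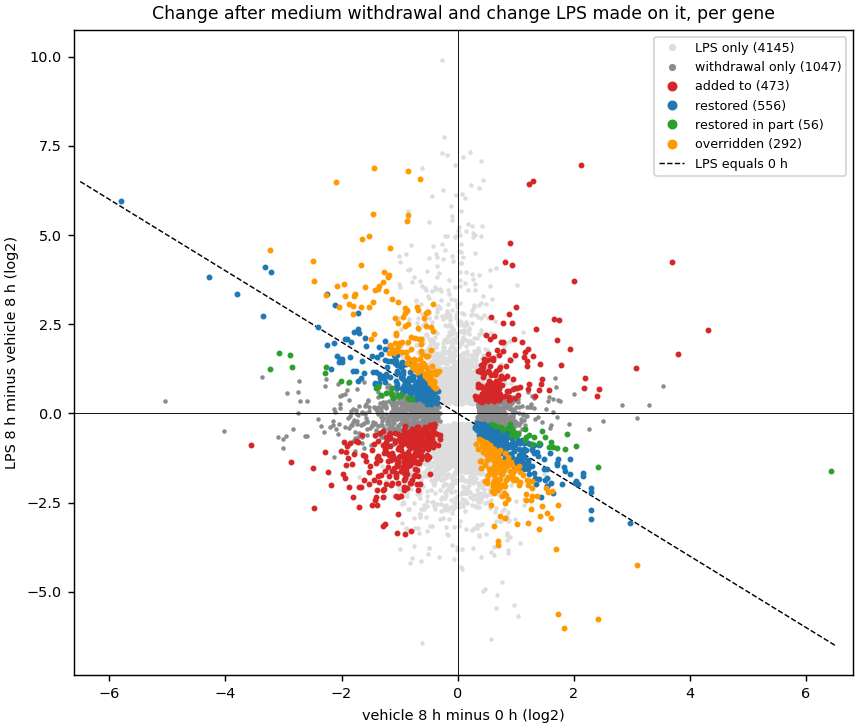
Each point is a gene, with the log2 change from 0 h to vehicle on the x axis and the log2 change from vehicle to LPS on the y axis, coloured by class, in WT arrays. Genes on the dashed line have the same mean with LPS as at 0 h. The 556 restored genes lie along it, the 473 added-to genes lie in the upper right and lower left, and the 292 overridden genes lie beyond the line.

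By direction of the withdrawal change, the classes held 174 higher (1.02% of all genes) and 299 lower genes (1.75%) that LPS added to, 364 higher (2.13%) and 192 lower (1.12%) that it restored, 32 higher (0.187%) and 24 lower (0.140%) restored in part, and 160 higher (0.936%) and 132 lower (0.772%) overridden. The counts are sensitive to single arrays. Genes lower with withdrawal numbered 751 in place of 1198 without vehicle replicate 3. The 174 became 111, 107 and 108 without vehicle replicate 1, 2 or 3 and 274 without LPS replicate 1. The 299 became 175, 169 and 159 without vehicle replicate 1, 2 or 3, and 192 and 198 without 0 h replicate 1 or 3. The 192 restored lower genes became 108 without vehicle replicate 3. The 160 became 91 without 0 h replicate 1, 91 without 0 h replicate 3, 104 without vehicle replicate 2 and 99 without vehicle replicate 3. The 132 became 68, 80 and 82 without 0 h replicate 1, 0 h replicate 3 or vehicle replicate 3. The 32 became 19, 21, 16 and 20 without 0 h replicate 1, vehicle replicate 3, LPS replicate 2 or LPS replicate 3, and the 24 became 15, 13 and 11 without 0 h replicate 3, vehicle replicate 1 or LPS replicate 2. Of the genes named here by the class rule, all 10 added-to genes kept their class under all 4 scalings, as did 7 of 10 changed with withdrawal only, 6 of 10 overridden, 5 of 10 restored and 3 of 10 restored in part.

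Promoter stretches of 5 genes that stand for the main patterns are shown here, chosen after their values were seen. They are from RefSeq on GRCm38.p6, written 5' to 3' on the gene's strand. The motifs were searched on both strands of the 250 bases before each listed start of a gene, and the shares are over 13605 genes of the array with a promoter in that table. Ifit3, an interferon-induced gene overridden by LPS, is shown at chr19:34583339-34583438 (+ strand), with capitals marking the interferon-stimulated response element, searched as GAAA, any 2 bases and GAAA, here on the opposite strand. That motif was found in 6 of 19 interferon-stimulated genes (31.6%) and in 3.09% of all. Nfkb2, an NF-kB subunit gene that LPS added to, is shown at chr19:46304637-46304736 (+ strand) from the earliest listed of its 3 starts, with capitals marking the kB motif, searched as GGG, any 3 bases and TTCC. It was found in 6 of 16 genes of the NF-kB list (37.5%) and in 5.78% of all. Sgsh, a lysosomal sulfatase gene lower with LPS, is shown at chr11:119355511-119355610 (- strand), with the E-box letters CACGTG in capitals. They were found in 13 of 35 lysosomal genes (37.1%) and in 8.75% of all. Pola1, a DNA polymerase alpha subunit gene, is shown at chrX:93632206-93632305 (- strand), with the E2F letters TTTGGCGC in capitals, here on the opposite strand. TTTGGCGC or TTTCCCGC was found in 6 of 32 DNA replication genes (18.8%) and in 2.25% of all. Aurka, a mitotic kinase gene, is shown at chr2:172370571-172370670 (- strand), with CCAAT in capitals. CCAAT was found in 22 of 31 mitosis genes (71.0%) and in 39.6% of all, and the CHR letters TTTGAA, in none of the stretches shown, were found in 12 of 31 (38.7%) and in 14.0% of all. No motif overlaps another in these stretches, and a match is a description of the letters only.
Ifit3: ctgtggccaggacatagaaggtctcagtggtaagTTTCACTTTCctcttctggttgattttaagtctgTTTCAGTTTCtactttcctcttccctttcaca
Nfkb2: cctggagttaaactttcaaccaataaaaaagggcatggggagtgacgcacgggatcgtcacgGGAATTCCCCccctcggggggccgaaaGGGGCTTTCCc
Sgsh: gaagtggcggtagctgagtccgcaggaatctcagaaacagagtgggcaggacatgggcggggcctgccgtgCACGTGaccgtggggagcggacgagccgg
Pola1: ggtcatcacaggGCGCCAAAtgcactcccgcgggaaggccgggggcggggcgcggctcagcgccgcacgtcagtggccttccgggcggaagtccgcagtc
Aurka: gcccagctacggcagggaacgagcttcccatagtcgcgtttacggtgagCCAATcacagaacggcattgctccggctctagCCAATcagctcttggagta

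Genes that fell when conditioned medium was withdrawn and were back near their 0 h level with LPS included monocyte-attracting chemokines and D-type cyclins. Ccl7, a ligand of CCR2, was at 644, 263 and 678 at 0 h, at 6.39, 7.29 and 14.6 with vehicle and at 1498, 283 and 373 with LPS. The vehicle arrays lay far below both other groups, which overlapped. Its fall was 55.4-fold (-5.79 ± 0.63), its rise with LPS 61.5-fold (5.94 ± 0.63) and its difference from 0 h 0.15, with a 95% interval from -1.18 to 1.49. Ccl2, the other main CCR2 ligand, was at 2303, 1085 and 2062, then 83.5, 112 and 75.6, then 2297, 717 and 1191. It fell 19.4-fold and rose 14.1-fold, with LPS against 0 h at -0.46 (interval -1.24 to 0.31, adjusted p = 0.368). It was restored only in part without scaling and with common hybridisation controls, and without LPS replicate 1 it was called lower than 0 h (-0.90, adjusted p = 0.0481). Ccnd2, cyclin D2, was at 359, 155 and 346, then 26.8, 27.3 and 32.7, then 891, 370 and 271. It fell 9.29-fold and rose 15.5-fold, and LPS against 0 h was 0.74 (interval -0.23 to 1.71). Ccnd3, cyclin D3, was at 520, 534 and 462, then 116, 160 and 123, then 464, 862 and 424, with LPS against 0 h at 0.13 (interval -0.52 to 0.78). Both kept this class under all 4 scalings, while Ccnd1, at 26.0-fold under 0 h, was not restored. Ch25h, which encodes cholesterol 25-hydroxylase, also kept it, falling by 3.32 ± 0.57 and rising by 4.10 ± 0.57. Tnfsf9, the 4-1BB ligand gene, fell by 3.80 ± 0.55 and rose by 3.36 ± 0.55, but was restored only in part without scaling and with common hybridisation controls.

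Of the 192 restored lower genes, 156 had a 95% interval for LPS against 0 h that lay within 2-fold, and of the 71 whose withdrawal change was at least 2-fold, 37 did. The 192 also held Phlda1 (LPS against 0 h 0.92) and the ERK pathway inhibitor Spred2 (-0.16), which was restored only in part without scaling and with common hybridisation controls. The glycolytic gene Pfkp was at 993, 764 and 668, then 298, 286 and 285, then 754, 580 and 610, and its LPS step was not called under those 2 scalings. A further member was Ppp1r15a, a phosphatase subunit of the stress response (withdrawal -1.32, LPS against vehicle 1.67). Plaur, the urokinase receptor gene, fell by 2.08 and rose by 1.62, and was restored only in part under each of the other scalings and without LPS replicate 3 (LPS against 0 h -0.95, adjusted p = 0.0255).

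Genes that rose with withdrawal and were back near 0 h with LPS numbered 364, with medians of 0.69 for withdrawal and -0.73 for LPS against vehicle, beside -0.82 and 0.87 for the 192 restored lower genes. Of these, 345 had an interval within 2-fold, as did 60 of the 78 whose withdrawal rise was at least 2-fold. Csf1r, the M-CSF receptor gene, was at 2331, 2488 and 2350 at 0 h, at 4057, 3982 and 4158 with vehicle and at 2365, 3080 and 2615 with LPS. Its vehicle arrays were above all others, and LPS against 0 h was 0.16 (interval -0.09 to 0.41). Without scaling and with common hybridisation controls its withdrawal rise was not called. Apoc2, an apolipoprotein gene, was at 159, 174 and 89.4, then 1099, 1073 and 1002, then 178, 224 and 50.3. It rose 7.81-fold and fell 8.39-fold, with an interval for LPS against 0 h from -1.26 to 1.06, and it counted as overridden with common hybridisation controls. Mtus1, which encodes a microtubule-associated protein, was at 46.9, 51.1 and 47.1, then 222, 229 and 259, then 74.9, 48.2 and 36.7. LPS against 0 h was 0.08 (interval -0.39 to 0.54), and it counted as overridden without scaling. Mertk, a receptor for apoptotic cells, rose by 1.28 ± 0.17 and fell by 0.99 ± 0.17, its withdrawal rise was not called without scaling and with common hybridisation controls, and without LPS replicate 2 it was called above 0 h (0.48, adjusted p = 0.038). Frat2, a Wnt pathway gene, rose by 2.29 and fell by 2.95, and it counted as overridden under the other 3 scalings and without LPS replicate 1 (LPS against 0 h -1.02, adjusted p = 0.00764).

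Restoration in part was clearest for Id3, which encodes an inhibitor of basic helix-loop-helix factors. It was at 16.6, 24.8 and 36.4 at 0 h, at 2035, 2092 and 2204 with vehicle and at 854, 588 and 669 with LPS. The 3 groups were fully separate, with a rise of 85.6-fold (6.42 ± 0.31), a fall of 3.03-fold and a remaining difference from 0 h of 28.2-fold (4.82 ± 0.31, adjusted p = 5.41e-09) under a class that held in all 4 scalings. Slc7a5, the large neutral amino acid transporter, was at 256, 191 and 106, then 23.5, 21.7 and 16.9, then 95.2, 68.5 and 44.7, so that LPS returned it to -1.39 ± 0.32 from -3.08 ± 0.32. Bcl2, a survival gene, was at 302, 274 and 291, then 19.4, 50.4 and 29.8, then 70.7, 58.7 and 94.6. Its LPS step of 1.25 ± 0.45 was not called under the other scalings. A dimmer Bcl2 probe set gave -2.39, then 0.16, so the return in part rests on the probe set used. Runx3 (-2.26, then 1.31) kept the class under all 4 scalings, but its difference from 0 h of -0.96 was no longer called without any 1 of the 3 0 h arrays, LPS replicate 2, LPS replicate 3 or vehicle replicate 1 (-1.06 to -0.84, adjusted p from 0.052 to 0.131).

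Genes that rose with withdrawal and rose further with LPS included 7 of 18 NF-kB subunits and feedback inhibitors. They also included 3 of 10 genes for arginine, nitric oxide and itaconate enzymes, and over all genes the class held 1.02%. Of those 10 enzyme genes, 8 were higher with LPS than at 0 h and none lower (1 without scaling), against 15.6% and 19.9% of all genes. Acod1, which makes itaconate, was at 52.9, 12.9 and 41.0 at 0 h, at 519, 291 and 394 with vehicle and at 8001, 7056 and 7193 with LPS. Its 3 groups did not overlap, and the rise of 244-fold (7.93 ± 0.43) was made of 12.9-fold without LPS and 19.0-fold with it. Slc7a2, an arginine transporter, was at 86.1, 45.0 and 9.30, then 749, 615 and 610, then 3564, 2784 and 3631, with steps of 4.31 ± 0.52 at withdrawal and 2.33 ± 0.52 with LPS. Its other probe sets gave 0.63 to 2.94 at withdrawal and 2.75 to 3.95 with LPS, so which step is larger depends on the probe set. Tlr2, a receptor for bacterial lipoproteins, was at 338, 321 and 356, then 946, 807 and 1037, then 1398, 1795 and 2334, with steps of 1.45 ± 0.18 and 0.96 ± 0.18. Its LPS step was not called with common hybridisation controls. The difference between the steps was not tested.

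Of 18 NF-kB subunits and feedback inhibitors, 17 were higher with LPS than at 0 h and none lower (median 3.11, against -0.0045 for all genes). Of all genes, 15.6% were higher and 19.9% lower. The withdrawal step was called higher for 7 and lower for 2, against 7.17% and 7.01% of all genes. Nfkb2 was at 80.8, 73.9 and 88.2 at 0 h, at 161, 154 and 170 with vehicle and at 846, 1301 and 1859 with LPS (1.00 ± 0.20, then 2.97 ± 0.20). Nfkbia, the inhibitor I-kappa-B alpha, was at 588, 663 and 605, then 1444, 1292 and 1571, then 5197, 4629 and 5154 (1.21 ± 0.13, then 1.80 ± 0.13). Both had 3 separate groups, but with common hybridisation controls neither rise with withdrawal was called and the list count of withdrawal rises was 1. Relb (1.20, then 1.34), Birc3 (0.99, then 1.63) and the superoxide dismutase gene Sod2 (0.89 ± 0.12, then 2.78 ± 0.12) rose in both steps with quantile normalization. The withdrawal rises of Birc3 and Sod2 were not called without scaling or with common hybridisation controls, nor was the LPS step of Relb with the latter. The list counts for LPS against 0 h were 13, 17 and 13 under the other scalings, and the withdrawal rises 3, 6 and 1.

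Genes that fell with withdrawal and fell further with LPS included 11 of 38 DNA replication, 10 of 39 mitosis and 7 of 26 sterol and fatty acid synthesis genes. Over all genes the class held 1.75%. Of the 38 DNA replication genes, 37 were lower with LPS than at 0 h and none higher (median -1.80), against 19.9% of all genes called lower. Withdrawal lowered 31 of them and LPS against vehicle 15, and 20 were called in the withdrawal step only. The shares over all genes were 7.01%, 18.6% and 3.22%. Without scaling, with a common median and with common hybridisation controls, the steps lowered 37 and 31, 36 and 18, and 28 and 28. Over all 17097 genes they lowered 1465 and 6702, 1420 and 3866, and 545 and 4565. Pola1, whose promoter is shown above, was at 333, 218 and 350 at 0 h, at 99.9, 114 and 94.9 with vehicle and at 35.2, 24.5 and 21.1 with LPS (-1.52 ± 0.24, then -1.96 ± 0.24). The 3 groups stepped down without overlap. Mcm7, a helicase subunit, fell by 1.82 ± 0.26 and then by 1.43 ± 0.26, while Uhrf1, which maintains DNA methylation, was called in the withdrawal step only (-3.01) with quantile normalization and in both steps under the other scalings.

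All 39 mitosis genes were lower with LPS than at 0 h (median -2.92). Withdrawal lowered 12 (median -0.79) and LPS against vehicle lowered 35 (median -2.15), with 25 called in the LPS step only and 10 in both. Of all genes, 19.9% were lower with LPS than at 0 h, 7.01% with withdrawal and 18.6% with LPS against vehicle. The all-gene counts under the other scalings are those given above for the DNA replication genes. Aurka was at 379, 298 and 362 at 0 h, at 205, 190 and 154 with vehicle and at 50.5, 29.4 and 47.4 with LPS (-0.92 ± 0.24, then -2.14 ± 0.24). The LPS arrays were below all vehicle arrays, and those below all at 0 h. Kif23, a kinesin of cytokinesis, fell by 3.72 with LPS and by 4.47 in all. Under the other scalings, in the same order, the steps lowered 22 and 38, 18 and 34, and 6 and 36, and no member of either list was called higher in a step. In bulk RNA, fewer cells in a phase of the cycle and less RNA per cell cannot be told apart.

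Of 26 sterol and fatty acid synthesis genes, 23 were lower with LPS than at 0 h and none higher (median -2.09). Withdrawal lowered 11 and LPS against vehicle 17, which became 17 and 24, 17 and 18, and 9 and 24 under the other scalings. Of all genes, 19.9% were lower with LPS than at 0 h, 7.01% with withdrawal and 18.6% with LPS against vehicle. Under the other scalings the steps lowered 1465 and 6702, 1420 and 3866, and 545 and 4565 of the 17097 genes. Fdps, farnesyl diphosphate synthase, was at 1205, 1178 and 1032, then 315, 276 and 298, then 145, 65.1 and 62.0 (-1.94 ± 0.32, then -1.82 ± 0.32), with 3 separate groups. Fasn, fatty acid synthase, fell by 1.76 ± 0.27 and then by 0.76 ± 0.27, and Insig1, which retains the sterol sensor in the endoplasmic reticulum, by 1.07 ± 0.30 and then by 1.66 ± 0.30. The early growth response gene Egr1 also fell in both steps, from 553, 1769 and 1408 to 106, 206 and 161 with vehicle and to 77.2, 47.4 and 56.4 with LPS. Clec10a, a lectin receptor gene, went from 2627, 4065 and 3043 to 771, 588 and 780 and then to 421, 161 and 80.7, which is 18.1-fold below 0 h.

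**Figure D3:**
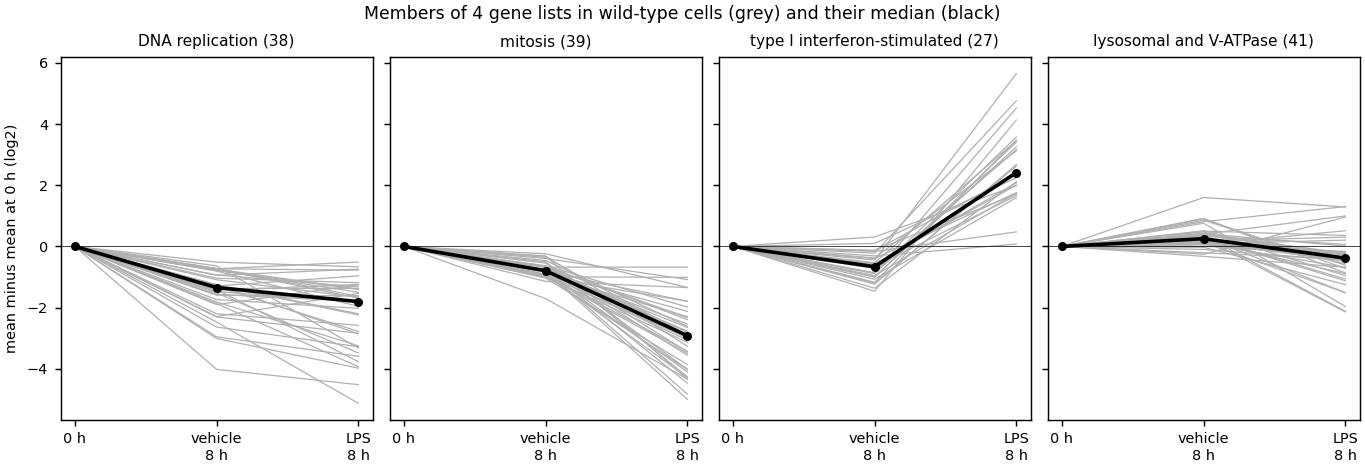
Mean log2 value minus the mean at 0 h for each measured member of 4 gene lists in WT cells (grey lines) with the list median (black). With quantile normalization the median of the 39 mitosis genes is -0.79 with vehicle and -2.92 with LPS, that of the 38 DNA replication genes reaches -1.80 with LPS, and the 27 interferon-stimulated genes dip or hold with vehicle before they rise.

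Among 27 interferon-stimulated genes, 8 fell with withdrawal and were overridden by LPS, and 19 rose in the LPS step only. Those classes held 0.772% and 10.7% of all genes. Of the 27, 26 were higher with LPS than at 0 h and none lower (median 2.42), and all 27 were higher with LPS than with vehicle. Of all genes, 15.6% were higher and 19.9% lower with LPS than at 0 h, and 13.7% higher with LPS than with vehicle. Withdrawal lowered 8 and raised none, against 7.01% of all genes lowered. In KO cells withdrawal lowered 3 of the 27 and raised 3, with a median of -0.09 against -0.66 in WT. The difference between genotypes was not tested for the list. Mx1, an antiviral GTPase, was at 152, 91.6 and 138 at 0 h, at 52.9, 53.3 and 32.5 with vehicle and at 3224, 1745 and 1831 with LPS. Ifit3 was at 377, 221 and 306, then 175, 133 and 90.97, then 3266, 1279 and 1440. In both the vehicle arrays were the lowest and the LPS arrays lay above every 0 h array, so that LPS against vehicle (5.59 ± 0.32 and 3.82 ± 0.37) was larger than LPS against 0 h (4.13 ± 0.32 and 2.63 ± 0.37). Slfn4, another interferon-induced gene, fell 4.28-fold and ended 20.8-fold above 0 h, at 1585, 1044 and 1640 against 68.0, 61.0 and 72.3. Dhx58 and Mx2 were overridden under all 4 scalings too, and the count lowered by withdrawal was 8, 7 and 7 under the other scalings. Isg20 (withdrawal -0.87) changed with LPS only under them.

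Other genes of the same class included 1 of 17 MHC class II and co-stimulation genes and 3 of 20 chemokines. Over all genes the class held 0.772%. Cd40, a co-stimulatory receptor, was at 50.6, 51.5 and 45.0 at 0 h, at 29.3, 21.3 and 9.45 with vehicle and at 3324, 1221 and 2376 with LPS, ending 43.5-fold above 0 h (5.44 ± 0.37). Gch1, which makes the nitric oxide synthase cofactor tetrahydrobiopterin, was at 431, 381 and 386, then 108, 114 and 122, then 1436, 627 and 885, and counted as restored without scaling and with common hybridisation controls. Ccl12, also a CCR2 ligand, was at 290, 85.3 and 375, then 22.3, 27.5 and 18.4, then 988, 382 and 407. Its difference from 0 h (1.35 ± 0.43, adjusted p = 0.0212) was called with quantile normalization and not under the other scalings, nor without 0 h replicate 2 (0.70, adjusted p = 0.125) or LPS replicate 1 (0.91, adjusted p = 0.117). Ccl2, Ccl7 and Ccl12 were all lowered by withdrawal and raised by LPS against vehicle, and whether they differed in their final level was not tested. Pilra, an inhibitory receptor gene, ended 3.43-fold above 0 h and kept its class under all 4 scalings. Gja1 (connexin 43) and P4ha2 (a collagen prolyl hydroxylase subunit) counted as restored under the other scalings, and lost the call against 0 h without 0 h replicate 1, 0 h replicate 2, LPS replicate 2 or LPS replicate 3, at 0.76 to 1.29 and 0.84 to 1.04.

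In the other direction, genes that rose with withdrawal ended below 0 h with LPS. Cebpa, a myeloid transcription factor, was at 348, 399 and 284 at 0 h, at 824, 1108 and 894 with vehicle and at 141, 155 and 169 with LPS (1.46 ± 0.18, then -2.60 ± 0.18). Its 3 groups did not overlap. 6330509M05Rik was at 109, 173 and 112, then 699, 654 and 703, then 15.4, 20.7 and 6.53, and Rnf144b, a ubiquitin ligase gene, at 192, 162 and 144, then 638, 541 and 464, then 8.58, 16.6 and 9.39. Enc1, which encodes an actin-binding protein, was at 89.2, 147 and 76.1, then 897, 816 and 834, then 47.8, 53.6 and 35.3. These 4 and Klhl24 kept the class under all 4 scalings. For 6330509M05Rik another probe set of similar brightness gave 1.46, then -1.08, and 0.38 for LPS against 0 h. The end of that gene below 0 h thus rests on the probe set used. Enc1's fall below 0 h (-1.16 ± 0.39, adjusted p = 0.0293) was not called without 0 h replicate 2 (-0.88), LPS replicate 1 (-1.20, adjusted p = 0.0502) or LPS replicate 3 (-0.98), and that of Klhl24 (-0.84 ± 0.25) was not called without 0 h replicate 2 (-0.60) or LPS replicate 3 (-0.56). Tlr4, the LPS receptor gene, rose by 0.57 with withdrawal and ended 0.55 below 0 h (-0.55). Its rise was not called under the other scalings, and its fall was lost without LPS replicate 1 (-0.36, adjusted p = 0.0691).

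Lysosomal genes mostly ended lower. Of 41 lysosomal and V-ATPase genes, 24 were lower with LPS than at 0 h and 7 higher (median -0.38), and LPS against vehicle lowered 29. Of all genes, 19.9% were lower and 15.6% higher with LPS than at 0 h, and 18.6% lower with LPS than with vehicle. Sgsh was at 249, 306 and 260 at 0 h, at 528, 460 and 394 with vehicle and at 45.3, 118 and 62.6 with LPS, a fall of 1.96 ± 0.32 on the log2 scale from 0 h. All LPS arrays lay below the others. Withdrawal raised 11 members with quantile normalization (7.17% of all genes), but only 1, 2 and 1 members under the other scalings. Those scalings also gave 32, 22 and 21 members lower with LPS than at 0 h.

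Changes that came with withdrawal and were not called in the LPS step numbered 496 higher (2.90%) and 551 lower (3.22%), and LPS against 0 h was called for 832 of these 1047. Tgm2, a transglutaminase gene, was at 288, 107 and 180 at 0 h, at 1435, 1132 and 1221 with vehicle and at 1492, 1500 and 1452 with LPS. Skil, a repressor of SMAD signalling, was at 386, 321 and 384, then 2030, 2007 and 2095, then 1765, 1794 and 1781. In both, vehicle and LPS arrays were well above 0 h. The step with LPS was 0.24 ± 0.29 for Tgm2 and -0.20 ± 0.10 for Skil. Csf2rb, the beta chain shared by the receptors for GM-CSF, IL-3 and IL-5, was at 576, 483 and 530, then 1839, 1609 and 1792, then 2389, 2451 and 1984, and its LPS step was called with a common median. Cav1, caveolin 1, rose 11.6-fold with withdrawal, from 23.8, 32.6 and 36.2 to 376, 332 and 352, and was at 450, 488 and 978 with LPS. Its LPS step (0.76 ± 0.29, adjusted p = 0.054) lay at the threshold. Among the falls, Etv5, a factor downstream of ERK, was at 692, 690 and 750, then 55.1, 81.1 and 73.1, then 163, 172 and 95.7. Plau, the urokinase gene, fell by 3.01 ± 0.35 with withdrawal and stood at -3.73 ± 0.35 with LPS, and its LPS step was called without scaling and with common hybridisation controls.

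Several other lists gave counts that depended on the scaling. Over all 17097 genes, 2670 were higher (15.6%) and 3396 lower (19.9%) with LPS than at 0 h. Withdrawal raised 7.17% of all genes and lowered 7.01%. The counts raised by withdrawal in the growth factor and stress response lists lay near that share. LPS against vehicle raised 13.7% of all genes, or 743, 1581 and 611 genes under the other scalings. Under the other scalings the all-gene counts were 586 and 9722, 1345 and 4890, and 541 and 5443. Of 34 growth factor and ERK output genes, withdrawal lowered 16 and raised 3, and with LPS 13 were lower and 7 higher than at 0 h (19 and 3, 16 and 5, and 18 and 3 under the other scalings). Of 27 glycolysis and hypoxia-responsive genes, withdrawal lowered 8 and raised 1, LPS against vehicle raised 21 (14, 21 and 9 under the other scalings), and 14 were higher and 3 lower than at 0 h (9 and 7, 13 and 5, and 8 and 6 under the others). The glucose transporter gene Slc2a1 went from 827, 548 and 780 to 426, 477 and 483 and then to 2728, 3061 and 3976, with a withdrawal fall called only without scaling. Of 39 TCA cycle and respiratory chain genes, 22 were lower with LPS than at 0 h and 1 higher, with 38, 24 and 26 lower and none higher under the others. Of 32 genes of the unfolded protein and integrated stress response, withdrawal lowered 17 and raised 3, and 13 were lower and 4 higher with LPS (26 and 3, 16 and 3, and 19 and 2 under the others).

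Among cytokines and chemokines most genes ended above 0 h, beside 15.6% of all genes called higher and 19.9% called lower. Of 18 pro-inflammatory cytokines, 12 were higher with LPS than at 0 h and none lower (9 and 3, 10 and 0, and 9 and 1 under the other scalings). Of 20 chemokines, 15 were higher and 1 lower (11 and 2, 12 and 0, and 11 and 2 under the others), and 18 were higher with LPS than with vehicle. Withdrawal had lowered 5 chemokines and raised 1. Over all genes withdrawal lowered 7.01% and raised 7.17%, and LPS against vehicle raised 13.7%. Of 14 MHC class I and antigen processing genes, 11 were higher and none lower, with 5, 9 and 6 higher under the others. The summed level of neutrophil markers also moved with LPS, and its part in the other rises was not tested. It was 171.1 to 180.6 at 0 h, 319 to 430.5 with vehicle and 593.2 to 936 with LPS. Of the 12 markers, 7 were at or under the nonspecific level in all WT arrays, Mpo, Elane, Ltf and S100a9 among them. With LPS against 0 h, 2 were called higher and 2 lower. S100a8 (2.01, then 3.70) and Camp (LPS against 0 h 4.28) rose. Mmp8 rose with withdrawal (1.63), fell with LPS (-2.17) and ended below 0 h (-0.54), as did the dim Elane (-0.58). Lymphocyte and NK markers were at or under the nonspecific level for 11 of 14, with sums of 123.2 to 139.7, 118.6 to 131.4 and 112.1 to 148.2.

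**Figure D4:**
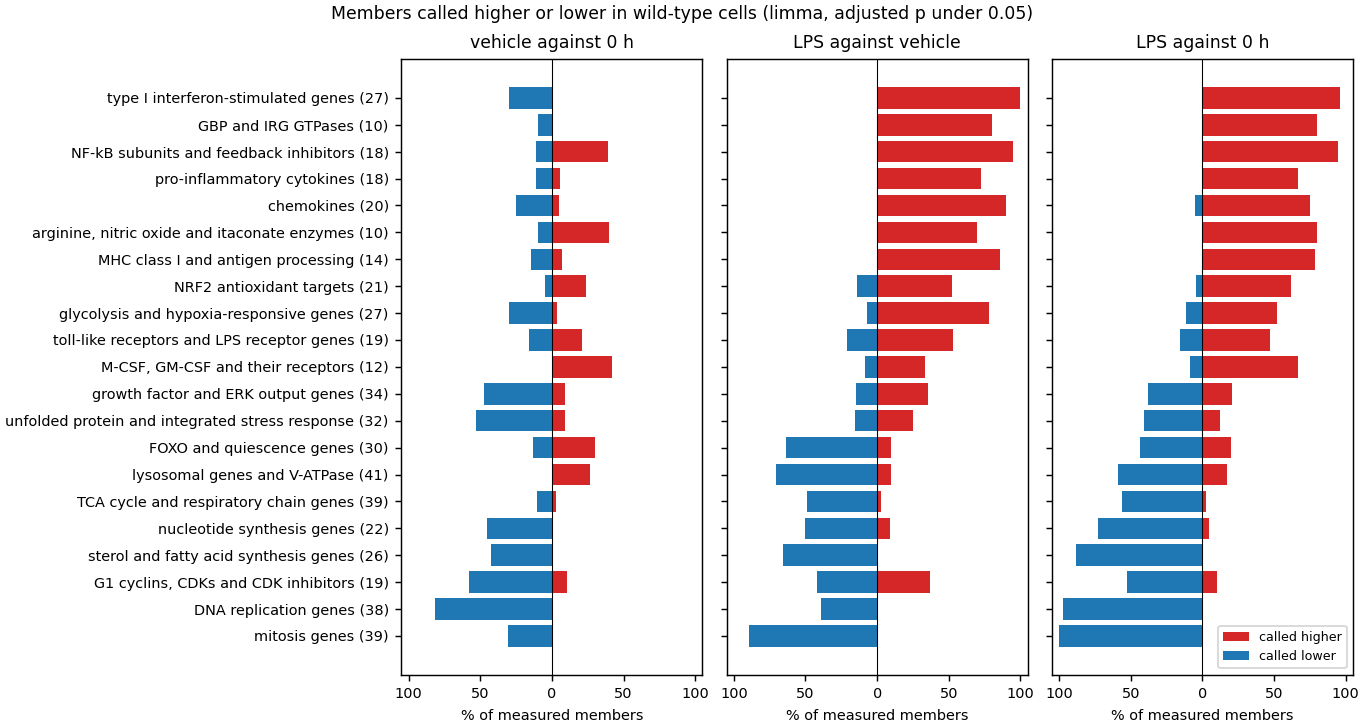
Share of the measured members of 21 gene lists called higher (red, to the right) or lower (blue, to the left) in WT cells, for vehicle against 0 h, LPS against vehicle and LPS against 0 h. DNA replication and mitosis genes are lower in 37 of 38 and 39 of 39 cases in the LPS against 0 h panel, and interferon-stimulated genes higher in 26 of 27. Counts are with quantile normalization and change with scaling for several lists. Of all genes, 15.6% were higher and 19.9% lower with LPS than at 0 h.

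The classes were defined by comparisons of WT groups, without any Klf3 KO group. The KO arrays still shared the normalization, the choice of probe set and the estimate of spread behind the calls. The KO values are therefore not fully independent of the classes. With only the 9 WT arrays fitted, added-to higher genes numbered 103 in place of 174. Overridden genes then numbered 103 and 85 in place of 160 and 132 (higher, then lower with withdrawal). In KO cells LPS against 0 h was called for 37.4% of genes, 2747 higher (16.1%) and 3648 lower (21.3%), withdrawal for 2150 (12.6%) and LPS against vehicle for 5894 (34.5%). Both steps had the WT signs in KO cells for 166 of 174 and 282 of 299 added-to genes, 346 of 364 and 171 of 192 restored genes and 158 of 160 and 128 of 132 overridden genes (higher, then lower with withdrawal). By the KO calls fewer fell in the same class, 111 and 159 added-to, 145 and 50 restored, and 78 and 56 overridden genes. Over all 17097 genes, most of them not called, the sign was shared by 71.2% for withdrawal and 73.7% for LPS against vehicle. Those shares are for each step alone, so they are not a like measure for both steps. The median LPS against 0 h difference in KO was 0.16 for restored lower genes (0.02 in WT) and -0.12 for restored higher ones (-0.04 in WT). Ccl7 fell by 6.24 and rose by 7.21 in KO, Ccl2 fell by 4.18 and rose by 5.10, and Ccnd2 fell by 3.64 and rose by 4.99. Id3 was again restored in part, at 5.22 above 0 h after a rise of 6.66.

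**Figure D5:**
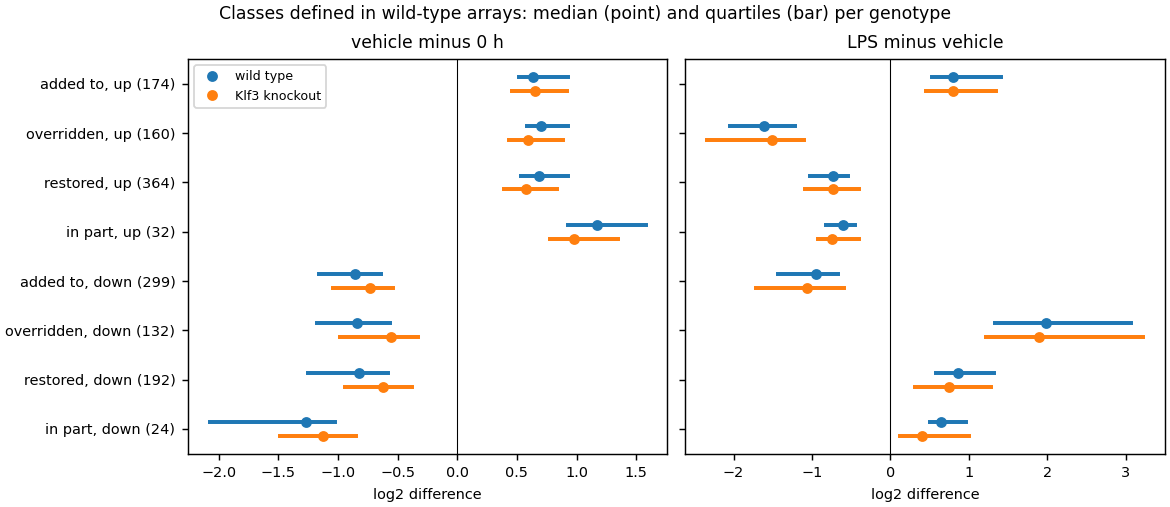
Median (point) and quartiles (bar) of the log2 change from 0 h to vehicle and from vehicle to LPS, in WT and in Klf3 KO arrays, for the genes of 8 classes that were defined by comparisons of WT groups. KO medians have the WT sign in every class, for example -0.56 and 1.90 in KO against -0.84 and 1.98 in WT for the 132 genes overridden from a withdrawal fall.

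The change from 0 h to LPS differed between genotypes for 320 genes (1.87%), 160 in each direction (0.936%), and the withdrawal change for none at an adjusted p under 0.05 in the limma fit (629 genes at an unadjusted p under 0.05). Among the genes above, Hp rose less in KO (4.60 against 7.66). Il6 with LPS was at 838, 288 and 1472 in WT and at 5373, 5709 and 5905 in KO, and Il1a at 756, 537 and 1885 in WT and at 3390, 3781 and 3390 in KO. Both were under the nonspecific level at 0 h in each genotype, so their rises did not start from a measured level, while the KO arrays with LPS lay above all those of WT. Fdps fell less (-1.72 against -3.76), as did Insig1 (-0.53 against -2.72), Rnf144b (-2.21 against -3.90) and 6330509M05Rik (-0.88 against -3.33). Another probe set of 6330509M05Rik was at 0.38 in WT. Slc7a5 was at 0.49 in KO against -1.39, and Mtus1 at -1.23 against 0.08.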

How the data were processed

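RNA of the 18 samples was hybridised to Affymetrix GeneChip HT MG-430PM arrays. The deposited values are intensities on a linear scale, which the authors made in Partek, per the submitters' processing notes. No version of it, background correction or genome build is stated in the sources used here. The distributions of the array columns differed, so log2 was taken of the deposited intensity and the 45037 probe sets that are not controls were quantile-normalized, whereas the planned analysis had assumed log2 values. Of these probe sets, 28898 had 1 gene symbol, 551 several and 15588 none, and a gene was represented by its brightest probe set on average over all arrays (17097 genes, 7180 with several probe sets). A model with 6 group means was fitted to the 18 arrays with limma 3.58.1 (lmFit and eBayes) in R 4.3.3. Tests are two-sided, p-values were adjusted by Benjamini-Hochberg over all genes with a threshold of 0.05, and intervals are 95%. The nonspecific level in an array is the 95th percentile over its 23 control probe sets for nonspecific signal. The number of arrays limits the precision.

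Adds to means both steps called with the same sign. Restored, restored in part and overridden mean opposite signs with LPS against 0 h not called, called with the withdrawal's sign or called with the opposite sign. Named are the 12 largest rises and falls without overlap of arrays, 5 genes per class and direction with the largest smaller step, up to 4 called members per list with the largest changes, and up to 4 per list that fall in the classes. The genes, 37 lists (777 of 866 entries measured) and classes were chosen with earlier results of these data known. The script was tested on simulated data. Alternatives covered scaling, dim genes, probe sets, the samples fitted, the threshold, a replicate block and each array left out.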

Additional observations from a re-analysis of the deposited data

Results flagged for a closer look

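Among the named genes, the change from 0 h to LPS differed between genotypes by the interaction contrast (limma, Benjamini-Hochberg adjusted over 17097 genes) for the following, given as the KO change minus the WT change on the log2 scale. It was higher in KO for Cyp51 (3.47), Cdkn2b (3.45), Il6 (2.93), Csf3 (2.71), 6330509M05Rik (2.45), Il1a (2.26), Idi1 (2.21), Insig1 (2.19), Plaur (2.19), Fdps (2.05), Ppp1r15a (1.99), Ccl17 (1.94), Il12b (1.93), Slc7a5 (1.88), Fdft1 (1.87), Itgb3 (1.85), Slc7a11 (1.82), Rnf144b (1.69), Ccl4 (1.34), Il18 (1.19) and Icosl (0.702). It was lower in KO for Timp1 (-3.25), Hp (-3.06), Mmp9 (-2.77), Adssl1 (-2.27), Il6ra (-2.07), Mtus1 (-1.31), Pfkfb3 (-1.16) and Mrc1 (-1.06). For Il6, Il1a, Il12b, Csf3 and Ccl17 the 0 h arrays of WT lay at or under the nonspecific level, so these values rest on fitted levels that were not measured. The same holds for KO at 0 h for Itgb3 and Slc7a11, and with LPS for Itgb3 in both genotypes and Adssl1 in KO. Il6ra, which encodes a subunit of the interleukin-6 receptor, was above 0 h with LPS in WT (0.62) and below it in KO (-1.45). The WT rise changed sign without scaling (-0.33) and with common hybridisation controls (-0.19). It was not called without any 1 of the 0 h arrays, LPS replicate 2 or LPS replicate 3 (0.38 to 0.65). Another probe set gave 0.035. The cause of the differences between genotypes was not tested.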

How the results depend on the processing

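Counts follow in the order of the text, higher before lower (for classes, by the withdrawal's direction). Without scaling, LPS against 0 h gave 586 and 9722 genes, withdrawal 222 higher, LPS against vehicle 743 and 6702 and KO LPS against 0 h 1157 higher. The classes then held 23 and 753 (added to), 80 and 109 (restored), 6 higher (in part), 71 and 49 (overridden), 42 higher (withdrawal only) and 540 and 5792 (LPS only). With a common median the counts were 1345 higher for LPS against 0 h, 464 for withdrawal and 1693 for KO, and in classes 45 and 461, 177 restored higher, 10 in part higher, 87 and 74 overridden and 145 withdrawal only higher. With common hybridisation controls they were 541 and 5443, 165 and 545 for withdrawal, 611 higher for LPS against vehicle and 908 higher for KO, and in classes 18 added to higher, 70 and 59 restored, 2 and 12 in part, 32 and 25 overridden, 43 and 232 withdrawal only and 497 and 4244 LPS only. With only genes above the nonspecific level in at least 3 WT arrays, added to, in part and overridden higher genes numbered 282, 61 and 250. With only the 9 WT arrays they numbered 103, 15 and 103, and overridden lower genes 85. At an adjusted p under 0.01 the classes held 73 and 111, 216 and 110, 7 and 7, and 59 and 51. With at least 2-fold in both steps they held 23 and 76, 64 and 59, 3 and 6, 34 and 51, then 97 and 266 (withdrawal only) and 760 and 1093 (LPS only). Leaving out each WT array in turn gave 2335 to 2825 and 3034 to 3475 genes for LPS against 0 h, 842 to 1519 and 751 to 1474 for withdrawal, 1964 to 2496 and 2722 to 3234 for LPS against vehicle, 2684 to 2954 and 3564 to 3897 for KO, and in classes 107 to 274 and 159 to 395, 251 to 414 and 108 to 240, 16 to 36 and 11 to 20, 91 to 208 and 68 to 159, 341 to 614 and 379 to 673, and 1645 to 1921 and 2034 to 2530. The number of lists with at least 50% of members called 1 way was 18, and 15 to 18 with an array left out. Of 237 named genes, 205 were called. Over 3892 pairs of a called gene and an alternative, 139 lost the call and 13 changed sign. Signs changed without scaling for Csad (-0.21), Cycs (-0.049), Dapk1 (-0.14), Fcer1a (-0.16), Hk1 (-0.065), Il6ra (-0.33) and Sowahc (-0.050), with common hybridisation controls for Csad (-0.079), Dapk1 (-0.0067), Fcer1a (-0.027) and Il6ra (-0.19), with values raised to the nonspecific level for Elane (0.021) and with the mean over probe sets for H2-DMb2 (0.062). With the replicate block, LPS against 0 h gave 2614 and 3352 genes. Deviations of same-numbered arrays correlated at -0.024 to 0.249 and of others at -0.225 to 0.129, so the numbers are not shown to pair samples. The cause of these shifts was not tested, and dim genes near the nonspecific level are measured least well.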

Other observations

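Genes of antigen presentation and antioxidant defence were counted too, beside 15.6% of all genes higher and 19.9% lower with LPS than at 0 h. The count of lower MHC class II and co-stimulation genes lay near that share. Of 17 MHC class II and co-stimulation genes, 9 were higher with LPS than at 0 h and 4 lower, and 6 and 4 under each of the other scalings. Of 21 NRF2 antioxidant targets, 13 were higher and 1 lower, with 5 already higher after withdrawal (1, 2 and 1 under the other scalings). Withdrawal raised 7.17% of all genes. Under the other scalings the NRF2 counts were 7 and 3, 13 and 0, and 7 and 1. The haem oxygenase gene Hmox1 rose by 2.36 from 0 h to LPS and the cystine transporter gene Slc7a11 by 4.72, while Gclm, a subunit of the enzyme that starts glutathione synthesis, rose with withdrawal (1.77) and not further with LPS (0.35).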
